A study of Mus musculus with 16 samples.

Results

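The genes described here are 60 members of the autophagy and lysosome machinery, measured by RNA sequencing in mouse CD4+ T cells after in vivo inhibition of BCL-2. Members were taken by symbol: the numbered Atg genes, the cathepsins (Cts and 1 letter), Lamp1 and Lamp2, the subunits of the vacuolar proton pump (Atp6v0 and Atp6v1), and 10 further genes named singly. They are 60 of 11464 genes in the data. Of these, 59 were measured in conventional cells and 60 in regulatory cells, Atp6v1g3 in the latter only. No further filter on low values was applied here, so all 59 and 60 entered the tests. Genes without a row, such as Atp6v1g3 in conventional cells, could not be tested, and a missing row is no measure of expression.

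All mice were B6.Cg-Foxp3tm2Tch/J, a strain in which GFP is produced together with FOXP3, and their genotype is given as WT. For 14 days they had received either vehicle or venetoclax, an oral small molecule that blocks the survival protein BCL-2, at 50 mg/kg. From spleen and lymph node, CD4+ FOXP3- conventional cells (Tcon) and CD4+ FOXP3+ regulatory cells (Treg) were taken, 4 libraries for each of the 4 combinations of subset and treatment. The labels call the replicates biological without saying whether 1 library stands for 1 mouse or a pool, and give neither age nor sex. P-values therefore measure the spread between these libraries.

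Autophagy encloses cytoplasm in a double membrane, the autophagosome, and delivers it to the lysosome. The ULK1 and Beclin 1 complexes start the process, ATG9 and ATG2 supply lipid, and a pair of ubiquitin-like conjugation systems attaches the LC3 and GABARAP proteins to the growing membrane. In the lysosome the vacuolar ATPase pumps in protons and cathepsins degrade the content, and the transcription factors TFEB and TFE3 can raise many of the genes involved. In T cells autophagy is known for its part in survival, memory and the stability of Treg, and cathepsins C and W are known from cytotoxic lymphocytes.

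For a comparison of treatments, values are normalized counts, in which the reads of a library are divided by its size factor. Changes are venetoclax over vehicle on the scale of log2(normalized count + 1), tested with limma, with Benjamini-Hochberg adjustment across the whole table and a threshold of 0.05. Comparisons of Treg with Tcon use CPM (a gene's share of the library's reads in the table) and have no test, because the tables were normalized separately. Tcon libraries held 22982210 to 24960570 reads in the tables and Treg libraries 21335006 to 25027038. Foxp3 stood at 19840 ± 1443 normalized counts in vehicle Treg and at 688.3 ± 50.9 in vehicle Tcon (SD, n = 4 each). The summed CD4 T cell markers stood at 67099.9 or more in every library. Of the CD4 T cell and Treg markers, Cd5 was lower with venetoclax in Tcon (log2 -0.39, adjusted p = 0.00769). Il2ra was higher in Tcon (0.98, adjusted p = 0.00589) and Ikzf2 in Treg (0.29, adjusted p = 0.0172), and the others did not pass. Of the macrophage markers, C1qa, C1qb, C1qc and Cd14 have no row in either table. Of the B cell markers, neither do Pax5 and Ighm. The macrophage markers with a row summed to 214.4 to 433.5 normalized counts over the Tcon libraries and 108.1 to 214.1 over the Treg libraries. The B cell markers with a row summed to 139.3 to 288.4 in Tcon and 508.7 to 682.7 in Treg. The Y-linked gene Ddx3y separated the replicate codes alike in both subsets: in Tcon it stood at 5664 in vehicle 2 and at 1468, 6674 and 3050 in venetoclax 1, 2 and 3, and at no more than 1 in the others. Its level was thus uneven between the treatments too, and calls that ended after adjustment for it are named below. Vehicle 3 of Tcon stood apart for several members, among them Atp6v0e at 3951 normalized counts against 1463 to 1745 in the other vehicle libraries, and Atg5 at 1511 against 992.6 to 1080. In bulk RNA such as this, fewer cells of a type and less RNA per cell cannot be told apart.

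The members together took 3874 ± 74.2 CPM in vehicle Tcon and 4108 ± 73.2 CPM in vehicle Treg, of which the cathepsins took 1186 ± 39.6 and 1404 ± 53.7 CPM (SD, n = 4 each). Compared per length, as CPM per kilobase of exon, the aspartic protease cathepsin D (Ctsd) and the cysteine protease cathepsin S (Ctss) were level in Tcon at 155.3 each. In Treg, Ctss at 274.4 was above Ctsd at 128.4 CPM per kilobase. The highest member of the pump's cytosolic head was Atp6v1f (63.6 in Tcon and 69.8 in Treg), and that of its membrane part was Atp6v0c (32.5 and 31.4), which encodes the proton-carrying ring protein. Sqstm1, the cargo receptor p62, stood at 60.9 and 61.9 CPM per kilobase, and the lysosomal membrane glycoprotein Lamp1 at 60.5 and 81.1. Of the conjugation enzymes Atg3, which passes LC3 to its lipid, was highest (26.4 and 22.1), and of the lipid suppliers Atg2a (11.1 and 11.6). Among the regulators, Atg101 (19.5 and 18.5) and Becn1 (19.0 and 18.8) differed by less than their spread over libraries, while the transcription factors Tfe3 (3.17 and 4.41) and Tfeb (3.04 and 3.21) were far lower. Members at the bottom of the scale were Ctsh (0.0640 in Tcon), Ctsf (0.118) and Atp6v0d2 (0.204).

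In vehicle mice, 11 of the 59 members measured in both subsets were higher in every Treg library than in every Tcon library, against 24.5% of all genes, and 7 were lower in every Treg library, against 12% of all genes. The other 41 overlapped. With TMM scaling over all 16 libraries in place of the library total, the numbers were 11 higher and 12 lower among the members, and 2154 higher and 1902 lower among all 10774 genes. The widest ratios belonged mostly to the less abundant forms of protein families.

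**Figure D1:**
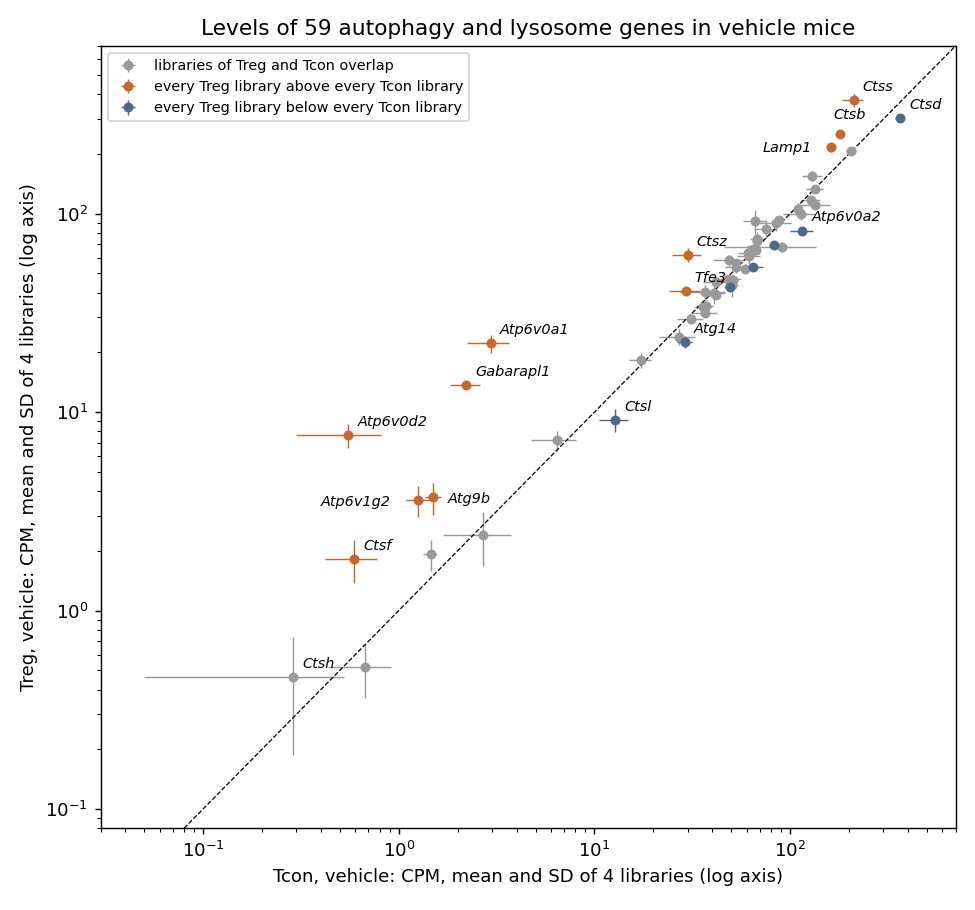
Level of 59 autophagy and lysosome genes in vehicle mice, Tcon on the horizontal and Treg on the vertical axis, in CPM on log axes, as mean and SD of 4 libraries; the dashed line marks equal levels. Atp6v0d2, Atp6v0a1 and Gabarapl1 lie farthest above the line, 13.8, 7.54 and 6.16 times higher in Treg, while most members lie along it.

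The clearest of these were subunits of the proton pump that exist in several forms. Atp6v0d2, a form of the d subunit best known from osteoclasts and macrophages, was at 0.544, 0.827, 0.631 and 0.213 CPM in vehicle Tcon 1 to 4 and at 8.01, 8.85, 7.43 and 6.35 CPM in vehicle Treg 1 to 4, a ratio of means of 13.8. Atp6v0a1, a form of the membrane-spanning a subunit, was at 3.56, 3.44, 1.98 and 2.82 CPM in vehicle Tcon and at 24.9, 22.7, 19.3 and 22.0 CPM in vehicle Treg, a ratio of 7.54. Its counterpart Atp6v0a2 went the other way, with 119.1, 119.3, 93.2 and 130.2 CPM in Tcon and 80.5, 82.3, 81.2 and 84.8 CPM in Treg, a ratio of 0.712. No library of one subset reached the range of the other for any of these 3 genes. As a share of Atp6v0a1 plus Atp6v0a2 transcripts per kilobase, Atp6v0a1 made up 2.54% ± 0.447 in vehicle Tcon and 21.7% ± 1.89 in vehicle Treg (SD, n = 4 each). Atp6v0d2 made up 0.727% ± 0.358 and 9.90% ± 1.47 of the d subunit transcripts in the same groups. The G subunit form Atp6v1g2, known from neurons, was at 1.26 ± 0.167 CPM in Tcon and 3.59 ± 0.640 CPM in Treg, 2.15% and 6.41% of the G1 and G2 transcripts. Its annotated span overlaps that of Nfkbil1 by 1551 bases, and no source used here gives the strand setting of the counting. Atp6v1h, a regulatory subunit of the head, was at 64.2, 61.0, 76.5 and 58.0 CPM in Tcon and at 54.9, 51.7, 56.0 and 52.2 CPM in Treg, a ratio of 0.827.

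Among the ubiquitin-like proteins, Gabarapl1 set the subsets apart. It was at 1.76, 2.35, 2.10 and 2.65 CPM in vehicle Tcon and at 14.0, 12.9, 13.6 and 14.0 CPM in vehicle Treg, 6.16 times higher. Its share of the 3 GABARAP transcripts per kilobase was 1.70% ± 0.397 in Tcon and 8.66% ± 0.215 in Treg, while Gabarapl2 remained the main form with 58.1% and 51.1%. The other 5 members of this group, Gabarap, Gabarapl2, Map1lc3a, Map1lc3b and Sqstm1, overlapped between the subsets. Atg9b, the less abundant of the lipid scramblases of the ATG9 vesicles, was at 1.5 ± 0.139 CPM in Tcon and 3.72 ± 0.675 CPM in Treg. Atg14, which directs the Beclin 1 complex to autophagosome formation, was at 32.0, 28.7, 25.8 and 29.3 CPM in Tcon and at 22.3, 24.7, 22.3 and 20.9 CPM in Treg, a ratio of 0.780. Atg3 was at 83.2 ± 5.42 CPM in Tcon and 69.6 ± 2.00 CPM in Treg, and Tfe3 at 29.3 ± 5.17 and 40.9 ± 1.38 CPM.

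**Figure D2:**
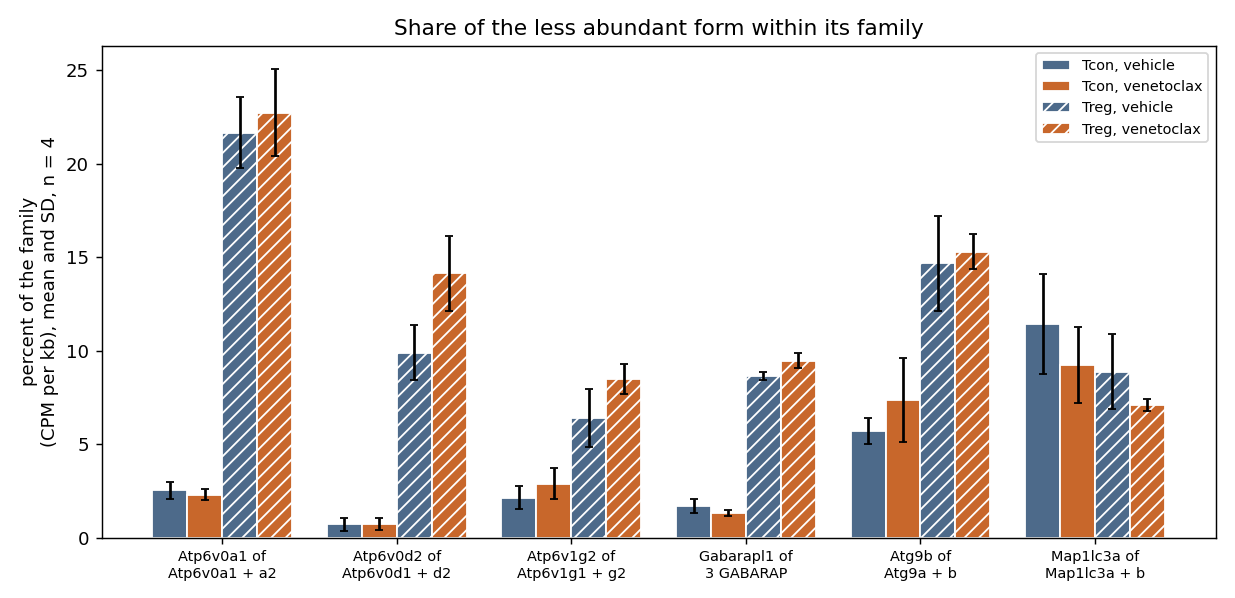
Share of the less abundant form within 6 families, in percent of the family's CPM per kilobase, as mean and SD of 4 libraries; solid bars are Tcon, hatched bars Treg, blue vehicle and orange venetoclax. Atp6v0a1, Atp6v0d2, Gabarapl1 and Atg9b take a larger share in Treg, and the Atp6v0d2 share in Treg is 9.90% with vehicle and 14.1% with venetoclax.

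The cathepsins divided between the subsets. Ctss, the protease that trims the invariant chain of MHC class II in antigen-presenting cells, was at 223.6, 182.2, 240.4 and 197.2 CPM in vehicle Tcon and at 395.9, 334.9, 388.5 and 371.2 CPM in vehicle Treg, 1.77 times higher. Ctsz, a carboxypeptidase, was at 30.0 ± 4.97 and 62.2 ± 4.78 CPM, and Ctsb, an endopeptidase of broad range, at 180.3 ± 6.80 and 253.2 ± 12.1 CPM. The scarce Ctsf was 3.08 times higher in Treg (0.594 ± 0.176 and 1.83 ± 0.445 CPM). In the other direction, Ctsd was at 369.0, 340.7, 393.1 and 357.9 CPM in Tcon and at 306.6, 301.3, 312.6 and 286.6 CPM in Treg, a ratio of 0.826. Ctsl, cathepsin L, had a ratio of 0.718, with 12.7 ± 2.19 CPM in Tcon and 9.15 ± 1.23 CPM in Treg. Ctsc and Ctsw, which come up again below, overlapped between the subsets in vehicle mice (64.6 ± 3.03 and 66.7 ± 2.52 CPM for Ctsc, 66.5 ± 9.04 and 91.6 ± 13 CPM for Ctsw). Lamp1 was 1.34 times higher in Treg and Lamp2 overlapped.

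With venetoclax, 20 members were higher in every Treg library and 11 lower in every one, against 30.2% and 18.3% of all genes. TMM scaling gave 16 and 16, and 2720 higher and 2534 lower among all 10774 genes. Ctsc and Ctsw joined the members that were lower in Treg: Ctsc stood at 102.6 ± 4.91 CPM in Tcon and 83.0 ± 2.62 CPM in Treg, and Ctsw at 111.8 ± 6.40 and 87.0 ± 12 CPM. Atg14 left that group, and its libraries overlapped.

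Few of these genes passed the threshold with venetoclax in Tcon, as was the case over all genes. Among the 59 members, 2 were higher (Ctsc and Ctsw), against 3.92% of all genes, and 3 were lower (Ctsl, Ctse and Atg14), against 2.99% of all genes. The median change of the members was 0.016 and that of all genes 0.0022 on the log2 scale, and 12 members had an unadjusted p under 0.05, as did 2528 of all 11171 genes. Same-numbered Tcon libraries of the 2 treatments deviated together, though the labels do not link them. With the replicate number as a block 10 members were called, 3 higher and 7 lower, against 16.8% of all genes in either direction. All 5 were among the 10. The block added Atp6v0b among the higher ones and Sqstm1, Ctso, Atg4a and Atg101 among the lower ones. Without both libraries numbered 3 the count was 9, and after adjustment for the Y-linked level it was 2, Ctsc and Ctsw. Over all genes 1443 and 326 were called in these settings, against 772 in the main comparison.

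More members passed in Treg, as did more of all genes. Of 60 members, 10 were higher, against 10.7% of all genes, and 2 were lower, against 8.81% of all genes. The higher members were Ctsc, Atp6v0d2, Atp6v0b, Ctsh, Lamp2, Ctsf, Atp6v1g2, Ulk1, Ctsb and Atp6v1g3, and the lower ones Ctsl and Atg4a. Under upper quartile scaling 13 were called, 8 of them higher, while of all genes 969 of 2317 called genes were higher, against 1189 of 2164 in the main comparison. The median change was 0.033 for the members and 0.0048 for all genes, and 18 members had an unadjusted p under 0.05, as did 3687 of all 11067 genes. The count fell to 7 without vehicle 1, to 6 without vehicle 3 and to 6 without venetoclax 1. It was 3 (Ctsc, Atp6v0d2 and Ctsl) without both libraries numbered 3, and 2 (Ctsc and Ctsl) in a fit of all 16 libraries. Calls over all genes fell as well, from 2164 to 1493, 1419, 1327, 1028 and 978 in the same order. In the authors' deposited table of adjusted p-values, the same 5 members passed 0.05 in Tcon, and in Treg 12 passed, of which 11 are among those above; Atg16l2 passed only there and Atp6v1g3 only here.

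**Figure D3:**
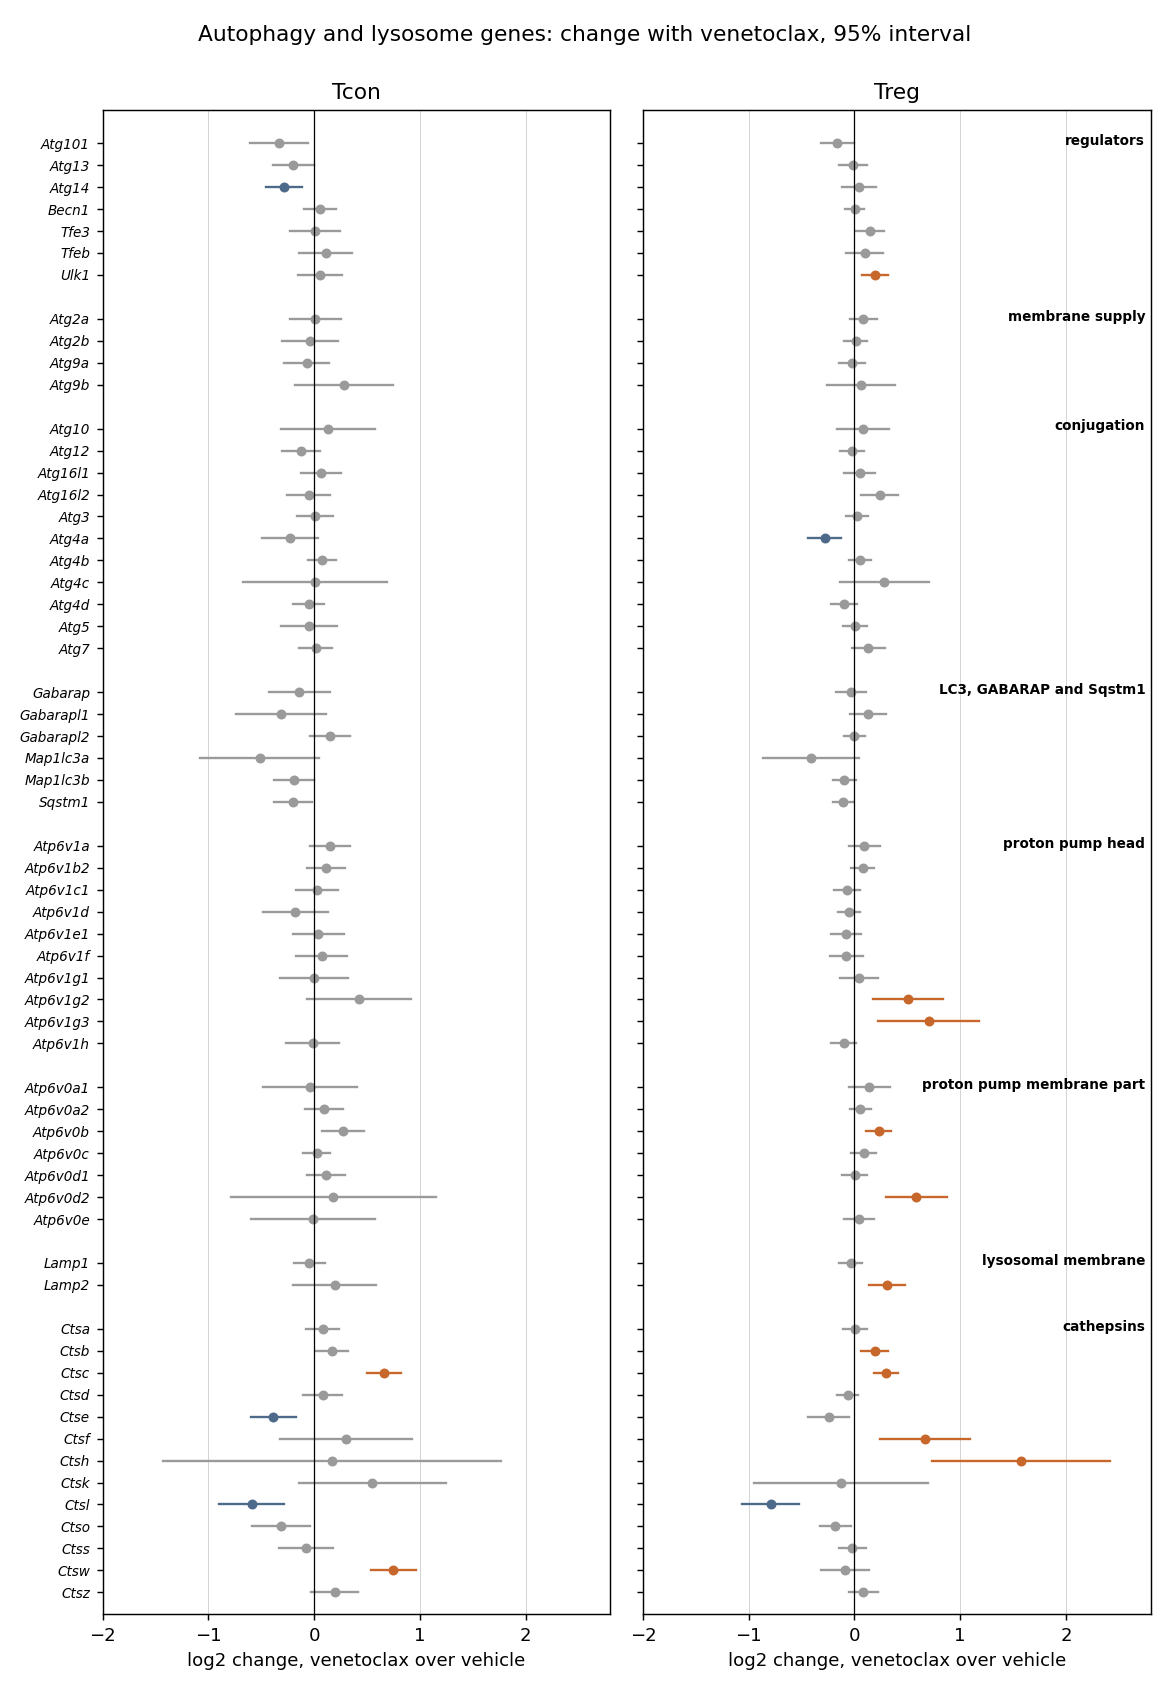
Change of each member with venetoclax in Tcon (left) and Treg (right) on the log2 scale, with its 95% interval, grouped by role; orange marks members that were higher and blue members that were lower at an adjusted p under 0.05, grey the others. Ctsc lies to the right and Ctsl to the left of 0 in both subsets, Ctsw only in Tcon lies clear of 0, and most regulators, conjugation enzymes and head subunits lie close to it.

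Of the 7 regulators, 1 was lower in Tcon, against 2.99% of all genes, and 1 was higher in Treg, against 10.7% of all genes. In Tcon, Atg14 was at 752.3, 658.7, 647.0 and 681.3 normalized counts in vehicle 1 to 4 and at 564.1, 548.2, 538.3 and 590.6 in venetoclax 1 to 4. All venetoclax libraries were below all vehicle libraries, a log2 change of -0.29 ± 0.08 (SE), adjusted p = 0.0492. That call lies at the threshold and ended without vehicle 1 (adjusted p = 0.129), vehicle 2 (0.0878), vehicle 4 (0.0852), venetoclax 1 (0.135), venetoclax 2 (0.125), venetoclax 3 (0.11) or venetoclax 4 (0.0714), with a pseudocount of 5 (0.0509), and after adjustment for the Y-linked level (0.204). In Treg, Ulk1, the kinase that starts autophagy, was at 1080, 1136, 1024 and 1077 with vehicle and at 1342, 1157, 1221 and 1224 with venetoclax. Every venetoclax library was above every vehicle library, a log2 change of 0.19 ± 0.06, adjusted p = 0.0351. It ended without vehicle 1 (0.0737), vehicle 3 (0.0996), vehicle 4 (0.0536), venetoclax 1 (0.109), venetoclax 3 (0.0639) or venetoclax 4 (0.0675). The same held under upper quartile scaling (0.0627) and after adjustment for the Y-linked level (0.11). The call ended too without both libraries numbered 3 (0.15) and in the fit of all 16 libraries (0.137).

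The 2 transcription factors did not pass. Tfeb was at 409.1 ± 59.7 and 438.1 ± 28.4 normalized counts in vehicle and venetoclax Tcon (log2 0.11, 95% interval -0.14 to 0.36) and at 432.5 ± 41.2 and 461.7 ± 18.4 in Treg (0.10, -0.08 to 0.27). Tfe3 was at 691.6 ± 99.4 and 691.0 ± 36.9 in Tcon (0.01, -0.23 to 0.24) and at 970.4 ± 29.5 and 1078 ± 78.8 in Treg (0.15, 0.02 to 0.28, adjusted p = 0.111). Becn1, the core of the Beclin 1 complex, had log2 values of 0.05 (-0.10 to 0.21) in Tcon and 0.00 (-0.09 to 0.09) in Treg. Its span overlaps that of Cntd1 by 444 bases. Atg13 and Atg101, partners of ULK1, did not pass in either subset. Atg101 did pass in Tcon under the replicate block (log2 -0.33, adjusted p = 0.14 without and 0.0151 with it).

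TFEB and TFE3 bind the palindrome CACGTG, the core of the element found in many lysosomal promoters, so the members' promoters were searched for it. RefSeq promoters (GRCm38.p6, 250 bases before to 50 after a start) were at hand for 46 members. CACGTG was present in 13 of the 46 genes (28.3%), against 1090 of 9237 measured genes with a promoter (11.8%). The longer form GTCACGTG, counted on either strand and always holding a CACGTG, was in 8 of 46 (17.4%) against 4.84% of measured genes. The forkhead letters TGTTTAC, on either strand, were in none of the 46, against 3.18% of measured genes. Of the 15 members called in either subset, 10 had a promoter and 4 of those held CACGTG. Stretches of the promoters of 4 members are shown because they span these cases: Lamp1 with 4 matches and Ctsd with 2 did not pass in either subset, Atp6v0b with 2 rose in Treg, and Ctsc with none rose in both. Only bases outside the gene's annotated span are printed, and positions count back from the start of the RefSeq promoter entry. The Lamp1 and Ctsd stretches reach that start, the Atp6v0b stretch ends 4 bases before it, and the Ctsc stretch leaves out the 61 bases nearest to it. Capitals mark CACGTG and, where present, the 2 further letters of the longer form. The Lamp1 stretch is chr8:13158911-13159160 on the plus strand, with matches that begin 61, 45, 28 and 15 bases before the start. Ctsd is chr7:142387828-142388077 on the minus strand, with matches 245 and 98 bases before it. Atp6v0b is chr4:117887334-117887579 on the minus strand, with matches 38 and 18 bases before it, and Ctsc is chr7:88277835-88278023 on the plus strand. A match describes the letters of this window and is not a measured binding site.
Lamp1: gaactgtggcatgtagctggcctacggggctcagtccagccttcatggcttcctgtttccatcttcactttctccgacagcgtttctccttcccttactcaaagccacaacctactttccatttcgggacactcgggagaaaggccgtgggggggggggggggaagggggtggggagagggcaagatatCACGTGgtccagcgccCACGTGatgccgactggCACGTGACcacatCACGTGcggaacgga
Ctsd: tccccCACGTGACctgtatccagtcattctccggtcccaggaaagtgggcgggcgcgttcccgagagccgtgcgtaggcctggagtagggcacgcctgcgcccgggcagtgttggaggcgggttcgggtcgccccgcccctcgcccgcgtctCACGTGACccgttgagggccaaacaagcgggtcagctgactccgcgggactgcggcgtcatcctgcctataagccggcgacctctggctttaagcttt
Atp6v0b: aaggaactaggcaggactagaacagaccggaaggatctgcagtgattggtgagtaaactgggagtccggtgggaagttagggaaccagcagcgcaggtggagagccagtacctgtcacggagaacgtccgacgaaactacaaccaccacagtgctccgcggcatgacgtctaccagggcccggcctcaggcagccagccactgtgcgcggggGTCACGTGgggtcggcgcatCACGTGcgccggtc
Ctsc: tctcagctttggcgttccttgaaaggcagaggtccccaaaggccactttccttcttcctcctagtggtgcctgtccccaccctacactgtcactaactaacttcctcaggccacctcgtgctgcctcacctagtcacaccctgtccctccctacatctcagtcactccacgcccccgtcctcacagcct

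The lipid suppliers Atg2a, Atg2b, Atg9a and Atg9b did not pass in either subset, with log2 values from -0.07 to 0.28 in Tcon and from -0.02 to 0.08 in Treg. Of the 11 conjugation genes, none passed in Tcon (from -0.23 to 0.13) and 1 was lower in Treg, against 8.81% of all genes. That one was Atg4a, a protease that prepares LC3 and GABARAP proteins for conjugation and releases them again. It was at 802.9, 751.1, 907.4 and 776.3 in vehicle Treg and at 620.6, 645.1, 677.3 and 719.2 in venetoclax Treg. The groups did not overlap, and the log2 change was -0.28 ± 0.07, adjusted p = 0.0177. The call ended without vehicle 3 (0.0567) or venetoclax 1 (0.0601) and without both libraries numbered 3 (0.0895). It also ended after adjustment for the Y-linked level (0.0827) and in the fit of all 16 libraries (0.0983). In Tcon its log2 value was -0.23 ± 0.12, adjusted p = 0.289 without and 0.0423 with the replicate block. The other 10 conjugation genes lay between -0.10 and 0.28 in Treg. The span of Atg4a overlaps that of Psmd10 by 2867 bases.

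None of the LC3 and GABARAP genes passed. Map1lc3b, the main LC3, was at 3077 ± 287.9 and 2696 ± 217.7 in vehicle and venetoclax Tcon (log2 -0.19, -0.38 to 0.00) and at 3691 ± 225.0 and 3452 ± 58.2 in Treg (-0.09, -0.20 to 0.01). Map1lc3a was far scarcer, with log2 values of -0.52 (-1.08 to 0.05) and -0.41 (-0.86 to 0.04). Gabarap had -0.14 (-0.43 to 0.15) in Tcon and -0.03 (-0.17 to 0.11) in Treg, Gabarapl1 -0.31 (-0.74 to 0.11) and 0.13 (-0.04 to 0.30), and Gabarapl2 0.15 (-0.04 to 0.34) and 0.00 (-0.10 to 0.10). Sqstm1 encodes p62, which carries cargo into the autophagosome and is itself degraded there as a protein. Its transcript was at 4732, 4343, 5360 and 4982 in vehicle Tcon and at 4150, 4028, 4661 and 4067 in venetoclax Tcon, where the groups overlapped (log2 -0.20 ± 0.08, adjusted p = 0.177 without and 0.0281 with the replicate block). In Treg it was at 4953, 4887, 5018 and 4869 with vehicle and at 4693, 4569, 4664 and 4384 with venetoclax. There the groups did not overlap, but the log2 value of -0.11 ± 0.04 had an adjusted p of 0.0943.

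Of the 7 members of the proton pump's membrane part, none passed in Tcon and 2 were higher in Treg, against 10.7% of all genes. Atp6v0d2 was at 188.8, 208.1, 179.2 and 151.1 normalized counts in vehicle Treg and at 322.5, 248.3, 221.3 and 305.3 in venetoclax Treg. Each venetoclax library was above each vehicle library, 1.5-fold on the log2(count + 1) scale (log2 0.58 ± 0.13, adjusted p = 0.00908). No single omission of a library ended the call, but the fit of all 16 libraries did (0.286). Its share of the d subunit transcripts in Treg was 9.90% ± 1.47 with vehicle and 14.1% ± 2.03 with venetoclax. In Tcon it lay between 4.97 and 22.7 in all 8 libraries, and the difference between the subsets' changes had an adjusted p of 0.891. Atp6v0b, the c'' protein of the proton ring, was at 990.8, 1043, 984.3 and 1035 in vehicle Treg and at 1125, 1213, 1221 and 1188 in venetoclax Treg. The groups were apart, with a log2 change of 0.23 ± 0.05, adjusted p = 0.00995. The call ended without both libraries numbered 3 (0.078) and in the fit of all 16 libraries (0.0541). In Tcon Atp6v0b was at 1062, 1139, 1349 and 1156 with vehicle and at 1453, 1324, 1572 and 1340 with venetoclax. Vehicle 3 overlapped the venetoclax libraries there, and the log2 value was 0.28 ± 0.09, adjusted p = 0.0929 without and 0.0142 with the replicate block. All 7 membrane members had values above 0 in Treg and 5 of 7 in Tcon, from 0.00 to 0.58 and from -0.04 to 0.28. Of all genes, 5673 of 11067 were above 0 in Treg and 5639 of 11171 in Tcon. Atp6v0c was at 2605 ± 67.4 and 2650 ± 106.9 in Tcon and at 2520 ± 168.0 and 2674 ± 84.7 in Treg, with neither past the threshold.

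Of the pump's head, none of 9 members passed in Tcon, against 3.92% of all genes higher and 2.99% lower. In Treg 2 of 10 were higher, against 10.7% of all genes. Both encode alternative G subunits of the stalk and were scarce. Atp6v1g2 was at 90.5, 100.9, 67.2 and 81.7 in vehicle Treg and at 106.8, 122.1, 111.1 and 143.1 in venetoclax Treg, with no overlap (log2 0.51 ± 0.15, adjusted p = 0.0329). Without vehicle 1 (0.0519), vehicle 3 (0.095), vehicle 4 (0.0562), venetoclax 2 (0.0656) or venetoclax 4 (0.0954) that call ended. It also ended after adjustment for the Y-linked level (0.0849), without both libraries numbered 3 (0.117) and in the fit of all 16 libraries (0.0975). Atp6v1g3, a form known from kidney, was at 30.2, 28.1, 18.5 and 28.5 with vehicle and at 40.0, 34.6, 46.4 and 51.9 with venetoclax, also with no overlap (log2 0.70 ± 0.22, adjusted p = 0.0411). The call ended without vehicle 1 (0.0536), vehicle 2 (0.0502), vehicle 3 (0.111), venetoclax 1 (0.0789), venetoclax 3 (0.0965) or venetoclax 4 (0.111). The same held after adjustment for the Y-linked level (0.0687) and without both libraries numbered 3 (0.215). Atp6v1g1, the main G form, was at 570.4 ± 57.0 and 586.4 ± 44.0 in Treg. Atp6v1a, the catalytic subunit that splits ATP, was at 1404 ± 129.0 and 1554 ± 116.7 in Tcon (log2 0.15, -0.04 to 0.34) and at 1257 ± 79.2 and 1342 ± 111.2 in Treg (0.09, -0.05 to 0.24). In Tcon the log2 value of Atp6v1g2 was 0.43 (-0.06 to 0.92). The other head members lay between -0.18 and 0.12 in Tcon and between -0.10 and 0.08 in Treg.

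Of the 2 lysosomal membrane glycoproteins, none passed in Tcon and 1 was higher in Treg, against 10.7% of all genes. Lamp2, whose A form takes up substrates in chaperone-mediated autophagy, was at 1062, 919.6, 957.1 and 884.6 with vehicle and at 1261, 1033, 1156 and 1290 with venetoclax (chrX:38399647-38456460). Only venetoclax 2 lay below the highest vehicle library, and the log2 change was 0.31 ± 0.08, adjusted p = 0.0151. The call ended without venetoclax 1 (0.0549), without both libraries numbered 3 (0.0584) and in the fit of all 16 libraries (0.212). In Tcon vehicle 3 stood high, with 878.2, 726.7, 1264 and 660.4 in the vehicle libraries and 971.7, 853.4, 1099 and 1001 in the venetoclax libraries, and the log2 value was 0.19 (-0.20 to 0.58). Lamp1 had log2 values of -0.05 (-0.19 to 0.10) in Tcon and -0.03 (-0.14 to 0.08) in Treg. Gene counts do not separate the splice forms of Lamp2.

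The cathepsins held 4 of the 5 Tcon calls and 5 of the 12 Treg calls. Of 13 measured, 2 were higher and 2 lower in Tcon, against 3.92% and 2.99% of all genes, and 4 were higher and 1 lower in Treg, against 10.7% and 8.81%. Ctsc encodes cathepsin C, or dipeptidyl peptidase I, which activates granzymes (chr7:88278024-88315861). In Tcon it was at 1544, 1525, 1659 and 1397 with vehicle and at 2423, 2461, 2571 and 2217 with venetoclax. The groups were far apart, a 1.58-fold rise (log2 0.66 ± 0.07, adjusted p = 0.000895). In Treg it was at 1520, 1519, 1642 and 1653 with vehicle and at 1944, 2049, 1924 and 1882 with venetoclax. The rise was again without overlap but smaller, 1.23-fold (log2 0.30 ± 0.05, adjusted p = 0.00188). Both calls were kept in all 19 alternative analyses.

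Ctsw encodes cathepsin W, found in cytotoxic lymphocytes (chr19:5465043-5468628, where its span overlaps that of Fibp by 10 bases). In Tcon it was at 1744, 1340, 1479 and 1732 with vehicle and at 2590, 2465, 2893 and 2591 with venetoclax. All venetoclax libraries lay above all vehicle libraries, 1.68-fold (log2 0.75 ± 0.09, adjusted p = 0.0015), and all 19 alternatives kept the call. In Treg it was at 2422, 1735, 2403 and 2142 with vehicle and at 2005, 1766, 2428 and 1967 with venetoclax, fully overlapping (log2 -0.09, -0.32 to 0.14). The markers of CD8 T and NK cells, of which Ncr1 and Klra8 have no row, summed to 893.6 to 1219 normalized counts in vehicle Tcon. In venetoclax Tcon the sum ranged from 889.1 to 1346, the highest in venetoclax 4. That library held 745.6 counts of Klrb1c, against 268.9 to 428.5 in the other Tcon libraries. Eomes moved downward, its mean dropping from 215.2 to 149.8 counts, or by -0.54 on the log2 scale. Its adjusted p was 0.0561, and 0.0159 under the replicate block. Klrb1c, Cd8a and Cd8b1 changed by 0.15, 0.09 and -0.07 and did not pass. The part of CD8 T and NK cells in the Ctsw change was not tested.

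Ctsl, cathepsin L, fell in both subsets (chr13:64361890-64370772). In Tcon it was at 269.4, 263.9, 301.9 and 372.4 with vehicle and at 203.8, 202.1, 227.8 and 163.9 with venetoclax, 1.51-fold lower (log2 -0.59 ± 0.14, adjusted p = 0.0308). In Treg it was at 214.1, 174.8, 241.5 and 239.4 with vehicle and at 123.5, 109.9, 134.3 and 130.6 with venetoclax, 1.73-fold lower (log2 -0.79 ± 0.12, adjusted p = 0.00109). Neither subset showed overlap of the groups. The Treg call was kept in all 19 alternatives, while the Tcon call ended without vehicle 1 (0.0547), vehicle 4 (0.0626), venetoclax 1 (0.084), venetoclax 2 (0.0721) or venetoclax 4 (0.076), and after adjustment for the Y-linked level (0.102). Ctse, the aspartic protease cathepsin E of endosomes, fell in Tcon, from 1290, 1130, 1279 and 1073 with vehicle to 891.5, 792.2, 945.6 and 1030 with venetoclax. The groups were just apart (log2 -0.38 ± 0.10, adjusted p = 0.0389), and the call ended without vehicle 1 (0.112), vehicle 2 (0.0728), venetoclax 1 (0.122), venetoclax 2 (0.106) or venetoclax 3 (0.0674), and after that adjustment (0.186). In Treg, Ctse was at 1040 ± 149.3 and 872.2 ± 59.9 (log2 -0.25 ± 0.09, adjusted p = 0.0721).

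A further 3 cathepsins rose in Treg. Ctsb was at 5955, 5690, 5981 and 6423 with vehicle and at 6761, 6551, 6478 and 7689 with venetoclax, each venetoclax library above each vehicle library (log2 0.19 ± 0.06, adjusted p = 0.0403). The call ended without vehicle 1 (0.0883), vehicle 2 (0.0833), vehicle 3 (0.083), venetoclax 1 (0.0768) or venetoclax 4 (0.117). It also ended under upper quartile scaling (0.0704), without both libraries numbered 3 (0.0795) and in the fit of all 16 libraries (0.0768). Ctsf, a widely expressed cysteine protease, was at 35.0, 40.6, 38.9 and 58.9 with vehicle and at 66.7, 62.1, 59.9 and 86.4 with venetoclax, narrowly apart (log2 0.67 ± 0.20, adjusted p = 0.0303). It ended without vehicle 1 (0.0856), vehicle 2 (0.0535), vehicle 3 (0.0747), venetoclax 1 (0.0711) or venetoclax 4 (0.091). The same held without both libraries numbered 3 (0.0902) and in the fit of all 16 libraries (0.0814). Ctsh, an aminopeptidase abundant in B cells and myeloid cells, was at 14.6, 7.28, 3.89 and 18.1 with vehicle and at 28.9, 36.6, 33.8 and 23.0 with venetoclax, 2.97-fold higher (log2 1.57 ± 0.39, adjusted p = 0.0140). Its counts were the lowest of the called members, and no single omission of a library ended the call. It ended without both libraries numbered 3 (0.0726) and in the fit of all 16 libraries (0.128). The B cell markers with a row summed to 508.7 to 581 in vehicle Treg and to 537.2 to 682.7 in venetoclax Treg. Of them Cd22 rose (114.5 ± 25.0 to 173.1 ± 27.6, log2 0.60, adjusted p = 0.0199), Cd79a and Cd79b did not pass, and Pax5 and Ighm have no row. The macrophage markers, of which C1qa, C1qb, C1qc, Cd14, Adgre1 and Fcer1g have no row, summed to 108.1 to 170.1 and to 109.9 to 214.1, and the red cell markers to 29.1 to 315.4 and to 17.4 to 835.3. The part of these cells in the Treg changes was not tested.

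**Figure D4:**
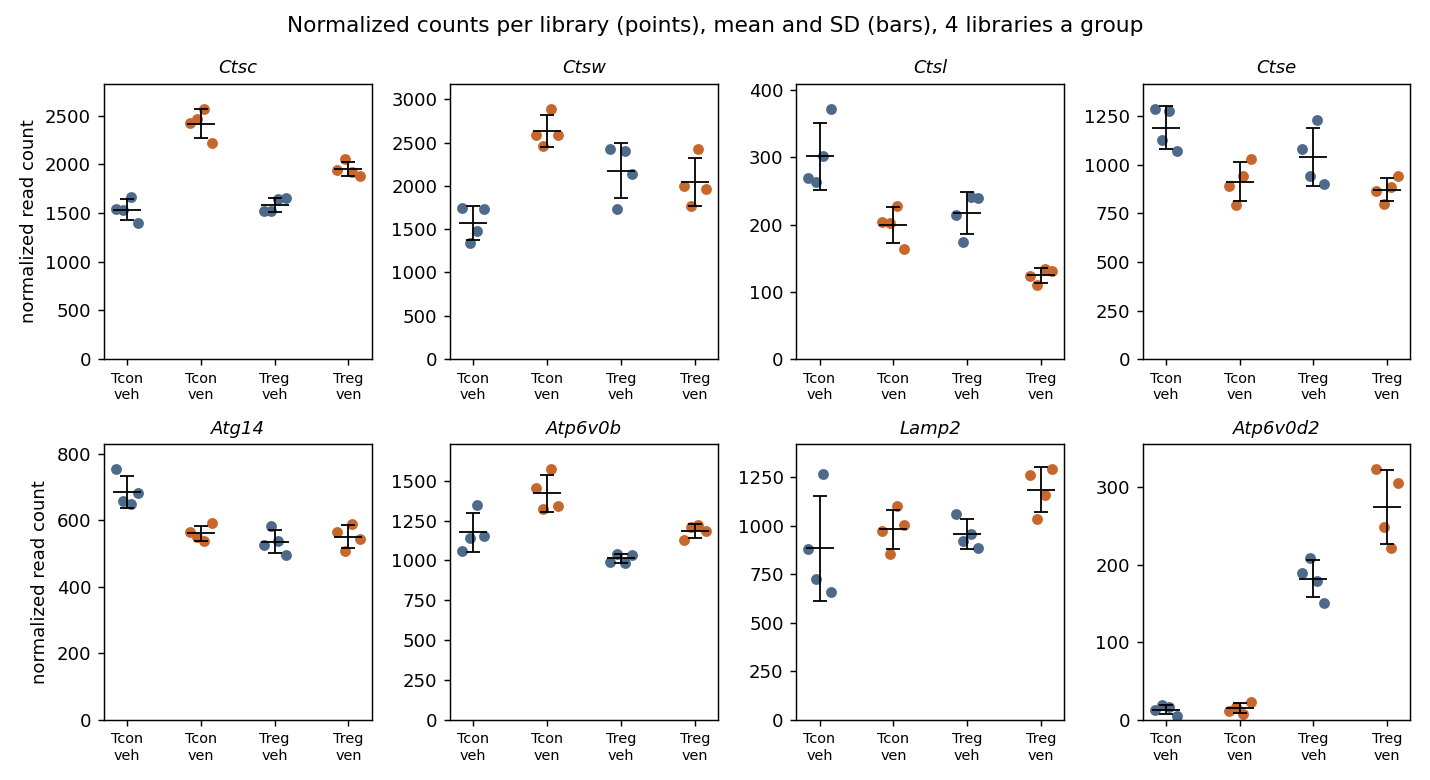
Normalized read counts of 8 members in each library (points), with mean and SD (bars), in vehicle (blue, veh) and venetoclax (orange, ven) libraries of Tcon and Treg, 4 libraries a group; each axis starts at 0. Ctsc is higher with venetoclax in both subsets and Ctsw in Tcon, Ctsl is lower in both, and Atp6v0d2 is near 0 in Tcon. Heights are comparable within a subset, since the tables were normalized separately.

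The remaining cathepsins did not pass in either subset. Ctsd had log2 values of 0.08 (-0.10 to 0.27) in Tcon and -0.06 (-0.16 to 0.04) in Treg, and Ctss -0.08 (-0.33 to 0.17) and -0.02 (-0.15 to 0.11). Ctso had -0.31 and -0.18, with an adjusted p of 0.0336 in Tcon under the replicate block and 0.167 without. Ctsk, known from osteoclasts, was at 31.7 normalized counts or less in every library of both subsets.

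Whether the response differed between subsets was tested as an interaction over all 16 libraries and the 59 members in both tables. It passed for 2 members, against 1.3% of all genes. For Ctsw the Treg change was lower than the Tcon change by 0.84 on the log2 scale (95% interval of the difference -1.18 to -0.50, adjusted p = 0.0159), and for Ctsc by 0.36 (-0.54 to -0.18, adjusted p = 0.0490). Tcon and Treg libraries paired by their code, and with the code as a block both remained called (adjusted p = 0.000658 and 0.0236) while 389 genes were called in place of 140. Ctsw was lost without venetoclax 1 (0.0869) or venetoclax 2 (0.0647). Ctsc, at the threshold, was lost without vehicle 1 (0.11), vehicle 2 (0.101), vehicle 4 (0.168), venetoclax 1 (0.21), venetoclax 2 (0.149), venetoclax 3 (0.179) or venetoclax 4 (0.0555). For the other members called in 1 subset the difference did not pass: Atg14 had 0.33 (0.12 to 0.54, adjusted p = 0.156), Lamp2 0.11 (-0.33 to 0.56), Ctse 0.14 (-0.16 to 0.44) and Atp6v0b -0.05 (-0.26 to 0.16).

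A further 83 genes of the same pathways lie outside the rule for members, and 82 of them were measured. In Tcon none was higher and 2 were lower, against 3.92% and 2.99% of all genes, with a median change of -0.043, and 12 had an unadjusted p under 0.05. Foxo1, a transcription factor that supports naive T cell traits and can raise autophagy genes, fell from 10838 ± 1588 to 7682 ± 866 (log2 -0.49, adjusted p = 0.0353). Calcoco1, an autophagy receptor, fell from 1304 ± 52.5 to 1084 ± 61.1 (log2 -0.27, adjusted p = 0.0388). In Treg 8 were higher and 6 lower, against 10.7% and 8.81% of all genes, with a median of -0.0036. Those that rose were Rragd, a Rag GTPase that recruits mTORC1 (1029 ± 48.1 to 1464 ± 114.5, log2 0.51, adjusted p = 0.000305), Sesn3 and Sesn1, sestrins that restrain it (0.37 and 0.23), and Lamtor3 of its anchor (0.28), as well as Laptm4b of the lysosomal membrane (0.56), Grn, whose product supports lysosomal enzymes (0.51), Cst7, an inhibitor of cathepsins C and L (1626 ± 153.1 to 2148 ± 284.1, log2 0.40, adjusted p = 0.0078), and M6pr, which sorts hydrolases to the lysosome (0.17). The 6 that fell were Foxo1 (11101 ± 723 to 8639 ± 471, log2 -0.36, adjusted p = 0.00122), Tollip (-0.31), the cholesterol carrier Npc2 (-0.28), Lamtor1 (-0.24), Tecpr1 (-0.16) and Wdr45b (-0.16).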

How the data were processed

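Total RNA from sorted cells was sequenced (Illumina NovaSeq, per the labels' protocols). The submitters' processing notes name the build mm10 and the tools HISAT2 and SAMtools; no source used here gives their versions, the read counter or its strand setting. The library columns of each subset's table hold normalized signal: by the file headers and values, the authors divided each gene's reads by a size factor of the library. A further signal column, deposited by the authors, averages the libraries. The authors also deposited a log2 fold change with its standard error, and an unadjusted and an adjusted p-value. Repeated lines (40 in Tcon, 43 in Treg) were dropped, and 18 Treg symbols that had become dates were restored. In each library 100.0% of values were whole multiples of 1 step within 0.01, so reads were recovered, although an automated check could not read the step of 3 Tcon columns with a size factor near 1.

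limma 3.58.1 (R 4.3.3, mean-dependent prior) compared log2(normalized count + 1). Alternatives were edgeR 4.0.16 and DESeq2 1.42.0 on recovered reads (786 and 1371 genes called in Tcon, 2195 and 2422 in Treg), TMM and upper quartile scaling, pseudocounts of 0.5 and 5, a mean of at least 50, a replicate block, omitted libraries, adjustment for Ddx3y and a fit of all 16 libraries. The limma tests within each subset were checked on simulated data, and the test of the subset difference was not. Same-numbered vehicle and venetoclax libraries deviated together in Tcon (correlations 0.119, 0.555, 0.614 and 0.272), although vehicle 1 was closer to venetoclax 4 (0.252). In Treg the correlations were -0.039, 0.414, 0.256 and 0.385, with number 1 below 0. Tcon and Treg libraries of the same code also deviated together (0.2 to 0.551). By these correlations alone, Tcon numbers and codes were treated as paired and Treg numbers were not. The labels do not say that a vehicle number and a venetoclax number are linked. Exon lengths are unions of GENCODE exons. Members and lists were chosen with earlier results of these data known. Named are all called members, 19 set in the design, the 6 widest subset ratios in each direction among members whose Treg and Tcon libraries did not overlap, called genes of the pathway list and the highest member per role.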

Additional observations from a re-analysis of the deposited data

Results flagged for a closer look

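In 12 of 238 groups of 4 libraries, taken over all members, 1 library lay far from the other 3, and chance alone gives such a library in about 1 group in 20. In Tcon vehicle 3 stood high for Atp6v0e (3950.5 normalized counts against 1462.8 to 1745.5), Atg3 (2276.6 against 1850.2 to 1917.2) and Atg5 (1511.4 against 992.6 to 1079.7), and vehicle 4 for Ctsh (14.9 against 3.2 to 5). Tcon venetoclax 3 stood high for Atp6v0e (2385.1 against 1851.8 to 1865.9) and Atg4a (914.3 against 680.9 to 717.9). Tcon venetoclax 2 stood low for Atp6v1a (1380.1 against 1597.9 to 1624.4) and Atp6v0d1 (1122.9 against 1359.9 to 1374.5), and venetoclax 4 for Atg16l1 (1401.3 against 1557.5 to 1565.9). In Treg, venetoclax 2 stood low for Atp6v0d1 (1051.1 against 1106.6 to 1115) and Atp6v1c1 (1369.6 against 1461.4 to 1473.5), and venetoclax 1 for Atp6v1f (1537 against 1699.6 to 1733.1).

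The response of 2 members differed between the subsets in the interaction test. The Treg change minus the Tcon change was -0.8381 on the log2 scale for Ctsw and -0.3587 for Ctsc.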

How the results depend on the processing

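No named result changed direction under any alternative. Over the 19 changes and differences of single members, 257 of 344 alternative analyses kept the call and 87 ended it. In Tcon, 5 members were called; the count was 10 with the replicate block, 9 without both libraries numbered 3, 2 with the Y-linked covariate, 8 in the fit of all 16 libraries, and 2 to 7 when 1 library was left out. In Treg, 12 were called; the count was 3 without both libraries numbered 3, 2 in the fit of all 16 libraries, and 6 to 13 when 1 library was left out. The replicate block gave 14 in Treg, adding Ctse and Ctso. Over all genes in Treg, 2164 were called, and 2467 with that block. The number was 1028 without both libraries numbered 3 and 978 in the fit of all 16 libraries. Leaving out 1 library gave 1327 to 2198. For the difference between subsets, 2 members passed; 1 did with a pseudocount of 5, 1 with edgeR, 1 with a mean of at least 50, and 0 to 2 when 1 code was left out. Over all genes DESeq2 called 1371 in Tcon against 772, and with the replicate block 1880. The Tcon number was 1443 without both libraries numbered 3, 326 with the Y-linked covariate and 1719 in the fit of all 16 libraries. Leaving out 1 library gave 306 to 1244 in Tcon. For the difference between subsets 140 genes were called, and 43 to 149 when 1 code was left out. A pseudocount of 5, edgeR and a mean of at least 50 gave 129, 141 and 109. Members whose Treg and Tcon libraries were apart in vehicle numbered 18, and 23 with TMM scaling. For members below about 50 normalized counts, such as Ctsh and Atp6v1g3, the replicate spread was wide, so a change of the size seen in Ctsb would not be detectable there. The causes of these shifts were not tested.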
